A study of Mus musculus with 4 samples.

Results

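The genes described here are 34 genes of the exocytosis machinery, chosen by name for their part in vesicle docking, priming, fusion and Rab signalling, out of 32285 genes counted. They were 6 SNARE genes, 2 factors that recycle SNARE proteins, 3 SNARE partners, 6 genes of the synaptotagmin and Doc2 families, 5 priming factors, 6 Rab GTPases, 4 Rab effectors and 2 granule membrane proteins. Their levels were read in beta, alpha, delta and Ppy-rich barcodes of mouse pancreatic islets, with each class gated on the share of its unique molecular identifiers (UMIs) that came from hormone genes. The study made 4 single-cell RNA libraries, 1 for each combination of genotype and age, with CCR2-DTR and WT mice taken at 6 months and at 1 month. CCR2-DTR+/- mice carry a transgene that gives cells expressing CCR2, a chemokine receptor of monocytes, the receptor for diphtheria toxin, and WT (CCR2-DTR-/-) mice were their littermates. All animals were females on the C57b6/J background, and WT as well as CCR2-DTR mice received the toxin, in 4 injections 48 hours apart from postnatal day 2, with weaning at 21 days. Each library pooled 300 islets of 2 to 3 females, so a group is 1 library, and differences by age or genotype have counting error only.

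Hormone granules leave an islet cell by regulated exocytosis. Rab GTPases and their effectors bring a granule to the plasma membrane, priming factors ready it, and syntaxin, SNAP25 and VAMP proteins zip into the SNARE complex that fuses the membranes when calcium rises, under the control of synaptotagmins and complexins. Islet endocrine cells share much of this machinery with neurons, and several steps are served by families of related genes, so that cells can differ in which isoform they use.

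RefSeq promoter windows of 300 bases around the annotated start (GRCm38.p6) were at hand for 23 of the 34 genes. The 5 printed here belong to genes with a window that divided the classes clearly. Sytl2, which also divided them, had no window. Capitals mark any match to TGACG, the core of the cAMP response element, on either strand, or to CAGNTG, the E-box. Sytl4 lies on the minus strand at chrX:133981763-133982062, Rab3c on the minus strand at chr13:110280157-110280456, Stxbp5l on the minus strand at chr16:37384909-37385208, Rab3b on the plus strand at chr4:108878820-108879119 and Cadps on the minus strand at chr14:12823030-12823329, each written 5′ to 3′ along its gene.
Sytl4: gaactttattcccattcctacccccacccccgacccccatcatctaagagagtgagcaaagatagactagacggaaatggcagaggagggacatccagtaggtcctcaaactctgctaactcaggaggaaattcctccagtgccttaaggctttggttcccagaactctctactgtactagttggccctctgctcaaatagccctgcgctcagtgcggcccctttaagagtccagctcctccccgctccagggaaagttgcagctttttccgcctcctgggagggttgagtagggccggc
Rab3c: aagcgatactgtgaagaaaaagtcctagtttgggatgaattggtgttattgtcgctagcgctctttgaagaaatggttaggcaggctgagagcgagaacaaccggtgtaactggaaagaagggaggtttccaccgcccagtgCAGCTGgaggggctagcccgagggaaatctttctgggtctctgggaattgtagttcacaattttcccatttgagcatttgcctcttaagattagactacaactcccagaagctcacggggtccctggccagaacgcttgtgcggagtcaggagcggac
Stxbp5l: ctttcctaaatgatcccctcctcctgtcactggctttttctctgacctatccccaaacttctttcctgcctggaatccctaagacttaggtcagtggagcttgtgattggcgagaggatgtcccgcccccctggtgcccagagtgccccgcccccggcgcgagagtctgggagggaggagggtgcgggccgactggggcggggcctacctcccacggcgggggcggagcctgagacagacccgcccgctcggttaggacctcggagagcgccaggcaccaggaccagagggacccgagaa
Rab3b: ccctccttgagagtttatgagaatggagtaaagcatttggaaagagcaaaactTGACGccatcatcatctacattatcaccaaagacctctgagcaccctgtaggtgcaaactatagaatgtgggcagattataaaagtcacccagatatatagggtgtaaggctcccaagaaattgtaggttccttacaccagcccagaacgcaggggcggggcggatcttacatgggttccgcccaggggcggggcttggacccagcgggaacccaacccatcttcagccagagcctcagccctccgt
Cadps: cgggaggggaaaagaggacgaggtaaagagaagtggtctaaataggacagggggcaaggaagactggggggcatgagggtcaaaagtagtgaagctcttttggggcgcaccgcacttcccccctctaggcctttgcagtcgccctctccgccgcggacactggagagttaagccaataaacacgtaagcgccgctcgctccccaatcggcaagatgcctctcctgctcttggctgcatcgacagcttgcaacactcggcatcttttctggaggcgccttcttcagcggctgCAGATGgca
Rab3b, whose level was highest in delta barcodes, held 1 TGACG match, and Rab3c and Cadps held 1 CAGNTG match each. The windows of Sytl4 and Stxbp5l held neither motif. Some genes have several windows, and of the 26 windows of the 23 genes, 10 held TGACG and 14 held CAGNTG, while 20.8% and 51.4% of 32851 RefSeq windows of the same length held them. A match describes letters only.

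The libraries held 7113 barcodes in CCR2-DTR at 6 months, 12444 in CCR2-DTR at 1 month, 5089 in WT at 6 months and 10433 in WT at 1 month. The gates gave 674 to 3584 beta, 673 to 2425 alpha, 190 to 471 delta and 123 to 303 Ppy-rich barcodes per library. The median beta barcode held 27976 and 28977 UMIs at 6 months in CCR2-DTR and WT, against 14317 and 17414 at 1 month. Ccr2 itself had 121 and 190 UMIs over the 4 classes in CCR2-DTR at 6 and 1 months, against 4 and 8 in WT. Beta, alpha and delta barcodes carried the markers of their names. A 9-gene beta list took 48.0% to 54.0% of UMIs in beta barcodes and at most 7.39% in the other classes. A 7-gene alpha list took 29.1% to 33.7% in alpha barcodes and at most 0.689% elsewhere. A 5-gene delta list took 11.9% to 13.8% in delta barcodes and at most 0.267% elsewhere. A 4-gene gamma list took 33.7% to 41.5% in Ppy-rich barcodes, nearly all of it Ppy, the gene of the gate, and Pyy. It took 4.86% to 6.24% in delta barcodes, most of it Pyy. Of its other markers, Aqp3 had no UMI in Ppy-rich barcodes. Id4 was lower there than in alpha, delta and endothelial barcodes of every library. It was above the beta level in every library but CCR2-DTR at 6 months. The class therefore rests on its hormone genes. Insulin was also counted in barcodes gated as other cells. It took 2.79% to 4.22% of UMIs in alpha, delta, Ppy-rich and endothelial barcodes of the CCR2-DTR 1-month library. In those of the other 3 libraries it took 1.21% to 3.37%. Whether it came from free RNA or from barcodes that mix cells was not tested. Endothelial barcodes, 280 to 478 per library, gave the level taken as background for each gene. Free RNA and the transcripts of endothelial cells themselves were not told apart there. Any 2 libraries shared 6 to 34 barcode sequences, at most 0.422% of the smaller library.

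Levels are UMIs per 1000000 UMIs of a class in a library with 7 hormone genes left out (CPM), and 4 values in a row are the CCR2-DTR libraries of 6 months and 1 month and then the WT libraries of 6 months and 1 month. Class preference asks which of the 34 genes each class uses more or less than the other 3. A gene was called where edgeR's quasi-likelihood test on the 16 sums of UMIs (4 classes in 4 libraries, library as a block) gave a Benjamini-Hochberg adjusted p under 0.05 and a difference of at least 2-fold between a class and the mean of the other 3. Cplx1 was too low to enter, which left 33 genes of the machinery among 13671 tested.

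In each class most of the 33 genes stayed under the 2-fold limit of a call. Smaller differences were frequent. An adjusted p under 0.05 (edgeR) was reached by 28 of the 33 in beta, 23 in alpha, 23 in delta and 16 in Ppy-rich barcodes. Of the 13671 genes tested, 9025, 6906, 5626 and 4370 reached it in these classes. In beta barcodes 5 genes were higher (Sytl4, Rab3d, Doc2b, Cadps, Syt4) and 5 lower (Sytl2, Rab3c, Stxbp5l, Sytl5, Stx1a), where 7.98% of all tested genes were higher and 11.2% lower. In alpha barcodes 3 were higher (Sytl2, Rab3c, Cadps) and 3 lower (Sytl4, Rab3b, Doc2b), with 5.53% and 5.96% of all genes. In delta barcodes 2 were higher (Stxbp5l, Rab3b) and 4 lower (Sytl2, Cadps, Rab3c, Sytl4), with 8.56% and 3.88% of all genes. In Ppy-rich barcodes 3 were higher (Sytl2, Rab3c, Cadps) and 1 lower (Sytl4), with 4.86% and 3.34% of all genes. The median log2 difference over the 33 genes was 0.09 in beta, 0.02 in alpha, -0.11 in delta and 0.02 in Ppy-rich barcodes. Without the TMM scaling these medians were -0.09 in alpha and 0.05 in delta barcodes, so their direction depends on the scaling. Of the 34 genes, 11 stayed within 1.5-fold over the 4 class means and 13 spanned at least 2-fold. Among the 13 are Cplx1 and Doc2b, which had very few UMIs. These spans were not counted over all genes, so the numbers have no background to be set against. A contrast against the mean of 3 classes can be moved by a single low class, so each pair of classes was also compared in the same fit, a comparison added after the data were seen. By that stricter reading beta barcodes stood apart from each other class in 2 genes (Sytl4 higher, Rab3c lower), alpha barcodes in 1 (Rab3b lower), delta barcodes in 3 (Rab3b and Stxbp5l higher, Cadps lower) and Ppy-rich barcodes in 0. Of all genes tested, 8.94% stood apart in this way in beta, 2.76% in alpha, 4.21% in delta and 1.33% in Ppy-rich barcodes. Ppy-rich barcodes shared the alpha pattern in Sytl2 and Rab3c, with a log2 difference of 0.21 ± 0.11 for Rab3c (SE, alpha over Ppy-rich, adjusted p = 0.159, edgeR).

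**Figure D1:**
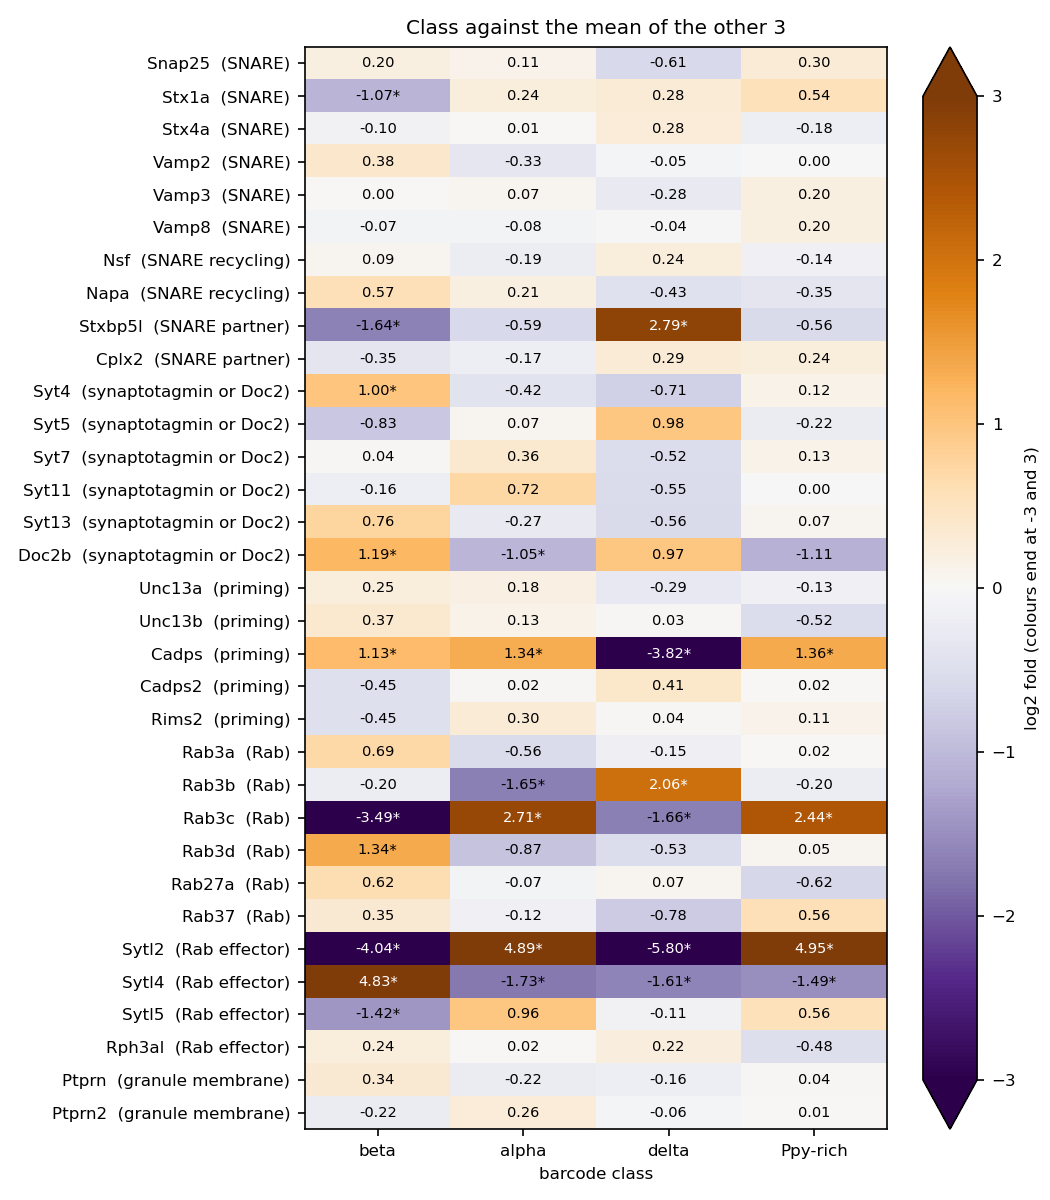
Each cell gives the log2 fold between a barcode class (columns) and the mean of the other 3 for 33 exocytosis genes (rows, with their role), and a star marks an adjusted p under 0.05 (edgeR quasi-likelihood test) with at least a 2-fold difference. The strongest colours sit in the rows of Sytl4, Sytl2, Rab3c, Stxbp5l, Rab3b and Cadps, and most other rows are pale.

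The Rab effectors, which bind Rab proteins on the granule and tether it to the plasma membrane, gave the widest divide. Sytl4, which encodes granuphilin, the Rab27a effector that docks insulin granules, stood at 371, 371, 297 and 380 CPM in beta barcodes. It stood at 8.01, 20.7, 9.55 and 8.85 CPM in alpha, 8.77, 26.3, 11.3 and 9.50 in delta and 10.5, 22.1, 14.2 and 9.29 in Ppy-rich barcodes. All 4 beta values lay far above every other value, at a log2 difference of 4.83 ± 0.13 (SE, adjusted p = 3.04e-16, edgeR). Outside beta barcodes Sytl4 was level with the background: endothelial barcodes held 8.81 to 22.0 CPM, and the highest value of each of the 4 was in the CCR2-DTR 1-month library. The same was seen per barcode. With every barcode thinned to 2000 non-hormone UMIs, 42.3% to 50.1% of beta barcodes had a Sytl4 UMI, against 1.53% to 3.93% of endothelial, 1.52% to 4.09% of alpha, 0.418% to 4.88% of delta and 0% (of 122 barcodes, with an exact 95% upper bound of 2.98%) to 4.53% of Ppy-rich barcodes. Without thinning these shares were 85.0% to 91.7% in beta and 4.29% to 10.3% in endothelial barcodes, at median depths of 7267 to 13891 and 4312 to 5664 non-hormone UMIs.

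Sytl2, a synaptotagmin-like effector of the same Rab27 proteins that is known from glucagon granules, had the opposite distribution. Alpha barcodes held 27.1, 27.0, 36.2 and 31.6 CPM and Ppy-rich barcodes 45.7, 23.6, 44.5 and 23.2 CPM, against 0.181, 0.222, 0.106 and 0.430 CPM in beta barcodes. Delta barcodes had 1 Sytl2 UMI in all 4 libraries together, at 0.548, 0, 0 and 0 CPM. Alpha and Ppy-rich values overlapped, and the difference between these classes was -0.05 ± 0.17 on the log2 scale (SE, alpha over Ppy-rich, adjusted p = 0.873, edgeR). Over the summed libraries the level in alpha barcodes was 108-fold that in beta barcodes (95% Poisson interval 71.1 to 173) and 249-fold that in delta barcodes (44.7 to 9856). In Ppy-rich barcodes it was 125-fold the beta level (80.7 to 203). The fitted log2 differences of Sytl2 against the mean of 3 classes, 4.89 in alpha, 4.95 in Ppy-rich, -4.04 in beta and -5.80 in delta barcodes, rest on prior counts where UMIs are this few. The beta call of Sytl2 ended under 2 of 14 alternatives, without the CCR2-DTR 6-month library (log2 -2.79, adjusted p = 0.990, edgeR) and under the stricter gate (log2 -3.47, adjusted p = 0.998).

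Sytl5, the third effector of this family, was lower in beta barcodes, at 22.7, 19.4, 22.3 and 18.0 CPM. Alpha barcodes held 79.2, 59.4, 80.5 and 60.2 CPM, delta barcodes 49.3, 38.3, 58.3 and 38.5, and Ppy-rich barcodes between 39.5 and 75.8. No beta value reached the lowest value of another class, and the log2 difference was -1.42 ± 0.07 (SE, adjusted p = 3.35e-12, edgeR). Rph3al, a Rab3 and Rab27 effector needed for normal hormone release in mouse islets, was called in no class, with means from 69.2 ± 9.34 CPM in Ppy-rich to 106 ± 4.37 CPM in delta barcodes (SD over 4 libraries).

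**Figure D2:**
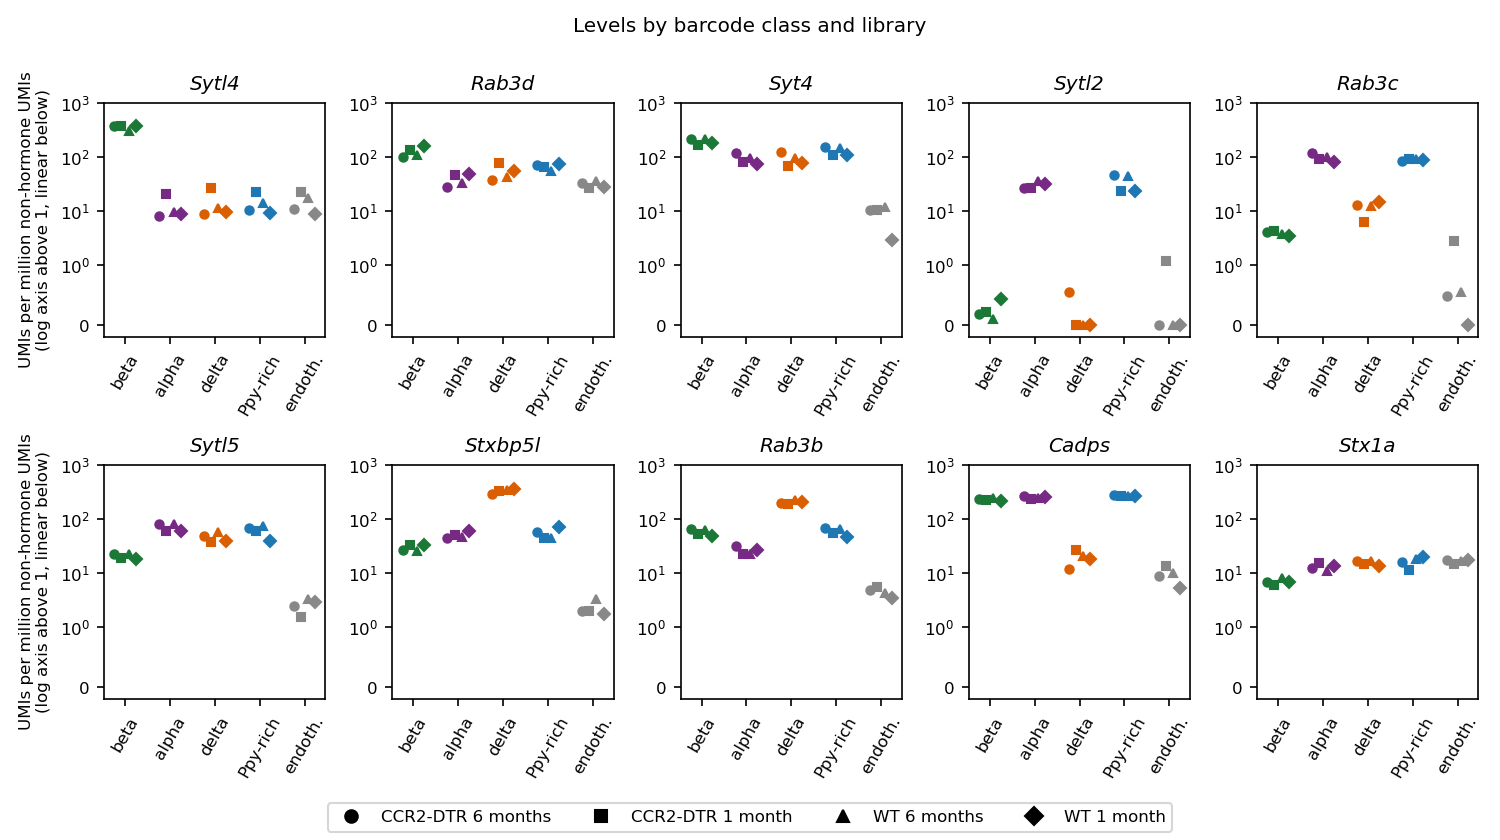
Each panel plots a gene, with the level in counts per 1000000 non-hormone UMIs on a log axis that is linear below 1, by barcode class (colour) and library (marker shape), with 4 points a class and endothelial barcodes in grey. Sytl4 is high in beta alone and level with endothelial barcodes elsewhere, Sytl2 and Rab3c are high in alpha and Ppy-rich barcodes, Stxbp5l and Rab3b peak in delta barcodes, and Cadps is low in delta barcodes.

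Among the Rab GTPases, switches on the granule surface, the Rab3 isoforms divided the classes, while Rab27a and Rab37 were called in none. Rab3c stood at 117, 93.1, 98.3 and 79.5 CPM in alpha and 82.96, 92.1, 91.4 and 89.4 CPM in Ppy-rich barcodes. Delta barcodes held 13.2, 6.23, 12.2 and 14.8 CPM and beta barcodes 4.16, 4.22, 3.83 and 3.41 CPM. The 4 classes fell into 3 levels with no overlap between them, alpha and Ppy-rich together at the top, then delta, then beta. The log2 difference was 2.71 ± 0.09 in alpha (adjusted p = 1.19e-14), 2.44 ± 0.12 in Ppy-rich (adjusted p = 1.74e-11), -1.66 ± 0.17 in delta (adjusted p = 1.43e-07) and -3.49 ± 0.14 in beta barcodes (SE, adjusted p = 9.88e-14, edgeR). Endothelial barcodes held 0 to 2.76 CPM.

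Rab3b peaked in delta barcodes, at 198, 187, 226 and 207 CPM. It stood at 64.0, 52.3, 63.0 and 49.2 CPM in beta and 69.6, 55.0, 65.7 and 47.0 CPM in Ppy-rich barcodes, and lowest in alpha barcodes at 31.9, 22.6, 22.3 and 26.7 CPM. Beta and Ppy-rich values overlapped, while the delta values lay above and the alpha values below all others. The log2 difference was 2.06 ± 0.08 in delta (adjusted p = 8.10e-14) and -1.65 ± 0.08 in alpha barcodes (SE, adjusted p = 4.88e-12, edgeR).

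Rab3d was higher in beta barcodes, at 125 ± 26.8 CPM, against 38.5 ± 9.91 in alpha, 52.2 ± 17.5 in delta and 66.1 ± 8.26 in Ppy-rich barcodes (SD, n = 4 libraries), a log2 difference of 1.34 ± 0.07 (SE, adjusted p = 1.05e-11, edgeR). Endothelial barcodes also held 31.1 ± 4.48 CPM of it, close to the alpha level. Rab3a, the isoform best known from synaptic vesicles, was highest in beta barcodes as well, at 172 ± 8.40 CPM against 87.3 ± 7.38 in alpha barcodes (SD, n = 4), short of a 2-fold difference. Rab27a, which carries granules to the membrane and whose exons overlap the predicted gene Gm27186 on the same strand, ranged from 69.3 ± 12.0 CPM in Ppy-rich to 128 ± 12.0 CPM in beta barcodes (SD, n = 4). Rab37, another granule GTPase, ranged from 55.0 ± 9.46 CPM in delta to 104 ± 8.75 CPM in Ppy-rich barcodes (SD, n = 4).

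Of the 5 priming factors, 1 was called in delta barcodes. Cadps, whose protein primes dense-core granules for release, stood at 12.1, 26.7, 20.4 and 17.9 CPM in delta barcodes. The other 3 classes lay close together, with 238, 228, 242 and 220 CPM in beta, 264, 239, 240 and 259 CPM in alpha and 275, 271, 270 and 269 CPM in Ppy-rich barcodes. No delta value came near the others, and the log2 difference was -3.82 ± 0.10 in delta barcodes (SE, adjusted p = 1.48e-15, edgeR). Beta and alpha differed by -0.16 ± 0.07 on the log2 scale (SE, beta over alpha, adjusted p = 0.0566, edgeR), so the calls of Cadps as higher in beta, alpha and Ppy-rich barcodes go with the low delta level. Endothelial barcodes held 5.28 to 13.4 CPM of Cadps, and the highest delta and endothelial values were both in the CCR2-DTR 1-month library.

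Cadps2, its paralogue, was called in no class and stood at 22.9 ± 5.57 CPM in delta, 17.4 ± 2.97 in Ppy-rich, 16.2 ± 0.311 in alpha and 13.2 ± 1.37 in beta barcodes (SD, n = 4). Unc13a and Unc13b, which open syntaxin for SNARE assembly, and Rims2, a scaffold that binds Rab3, were likewise called in no class. Unc13a means lay between 34.1 and 40.5 CPM and Unc13b means between 26.8 and 40.9 CPM. Rims2 was at 107 ± 7.40 CPM in beta barcodes, against 151 to 155 CPM in the other 3 classes.

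Among SNARE partners, Stxbp5l was the gene that stood out most in delta barcodes. It encodes a tomosyn, a syntaxin-binding protein that holds back SNARE assembly. Its level was 292, 325, 349 and 360 CPM in delta barcodes, against 27.0, 32.9, 25.9 and 32.5 CPM in beta, 43.9, 49.9, 47.4 and 58.8 CPM in alpha and 57.7, 44.3, 45.5 and 70.2 CPM in Ppy-rich barcodes. Every delta value was more than 4 times the highest value elsewhere, and every beta value was below the lowest alpha value. The log2 difference was 2.79 ± 0.06 in delta (adjusted p = 1.98e-16) and -1.64 ± 0.07 in beta barcodes (SE, adjusted p = 3.85e-13, edgeR). Endothelial barcodes held 1.76 to 3.28 CPM.

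Complexins clamp and then aid the SNARE complex. Cplx2 was present in all 4 classes, from 317 ± 39.8 CPM in beta to 491 ± 25.2 CPM in delta barcodes (SD, n = 4), and was called in none. Cplx1 had 9 UMIs in beta, 5 in alpha, 3 in delta and 0 in Ppy-rich barcodes over all 4 libraries.

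The SNARE genes themselves varied little. Stx1a, the plasma membrane syntaxin of insulin release, was the exception, at 6.75, 6.13, 8.19 and 6.75 CPM in beta barcodes against 11.01 to 15.3 in alpha, 13.7 to 16.97 in delta and 11.4 to 19.7 in Ppy-rich barcodes. All beta values were below all others, by 1.07 ± 0.12 on the log2 scale (SE, adjusted p = 2.65e-07, edgeR), and endothelial barcodes held as much as the other classes (14.6 to 17.6 CPM). Snap25, its partner on the plasma membrane, had means from 150 ± 17.3 CPM in delta to 223 ± 16.999 CPM in Ppy-rich barcodes (SD, n = 4). Vamp2, the granule SNARE of regulated release, had means from 116 CPM in alpha to 173 CPM in beta barcodes. Stx4a, Vamp3 and Vamp8, SNAREs found in many cell types, spanned 1.36-, 1.19- and 1.24-fold over the class means. Stx4a and Vamp3 were higher in endothelial barcodes (83.7 and 124 CPM) than in any endocrine class, and Vamp8 was nearly as high there (168 CPM). Nsf and Napa, which pull spent SNARE complexes apart, spanned 1.44- and 1.56-fold.

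The synaptotagmins and Doc2b carry C2 domains, by which some of them sense calcium. Syt4, which binds calcium poorly, was higher in beta barcodes, at 219, 167, 214 and 180 CPM, against 74.8 to 116 in alpha, 67.7 to 122 in delta and 107 to 152 in Ppy-rich barcodes. The groups did not overlap, but the log2 difference of 1.00 ± 0.05 (SE, adjusted p = 3.78e-12, edgeR) sat at the limit for a call and was 0.94 to 1.00 under the 8 alternative settings that ended it. Doc2b, a high-affinity calcium binder, was called higher in beta barcodes (log2 1.19 ± 0.29, SE, adjusted p = 0.00126, edgeR) on very few UMIs, with 2.43 ± 0.634 CPM in beta and 2.47 ± 0.996 in delta barcodes against 0.737 ± 0.235 in alpha and 0.699 ± 0.563 in Ppy-rich barcodes (SD, n = 4). Its call as lower in alpha barcodes (log2 -1.05 ± 0.38, SE, adjusted p = 0.0272, edgeR) ended under 5 alternative settings.

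Syt5 was highest in delta barcodes, at 90.4, 103, 66.6 and 106 CPM, a log2 difference of 0.98 ± 0.13 (SE, adjusted p = 8.75e-06, edgeR) that fell just short of 2-fold. Under several alternative settings it was called higher in delta barcodes. These were a minimum of 6000 UMIs, the stricter gate, no TMM, DESeq2 and leaving out either 1-month library. Ppy-rich values ran from 23.9 to 77.9 CPM and overlapped the delta range. Syt13, an atypical member, was highest in beta barcodes (607 ± 36.9 CPM, against 340 to 443 CPM in the other class means, SD, n = 4). Syt11 was highest in alpha barcodes (77.9 ± 4.46 CPM, against class means of 46.4 to 58.0). Syt7, the calcium sensor of insulin and glucagon release, ranged from 197 CPM in delta to 272 CPM in alpha barcodes. The granule membrane proteins Ptprn and Ptprn2, autoantigens in diabetes, spanned 1.39- and 1.25-fold and were called in no class.

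Shares within a family set the isoforms of each class beside one another, with background included. For Sytl4 outside beta barcodes and Cadps in delta barcodes the level was at or near that background. They are set side by side between classes only, because capture at the 3′ end differs between transcripts. Of the UMIs of Sytl2, Sytl4 and Sytl5 together, Sytl4 made up 94.4% ± 1.05 in beta barcodes, against 10.7% ± 5.83 in alpha, 22.9% ± 12.0 in delta and 13.2% ± 5.47 in Ppy-rich barcodes (SD, n = 4). Sytl5 made up 76.8% ± 11.8 in delta and 62.1% ± 5.90 in alpha barcodes, and Sytl2 31.0% ± 6.12 in Ppy-rich and 27.2% ± 3.49 in alpha barcodes. The wide spread in delta barcodes came from the CCR2-DTR 1-month library, where Sytl4 was 40.7% of the family, against 14.95% to 19.8% in the other 3.

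Among the 4 Rab3 genes, Rab3a (48.2% ± 3.23) and Rab3d (34.7% ± 5.90) made up most of the UMIs in beta barcodes, Rab3b 52.2% ± 3.89 in delta barcodes and Rab3c 39.0% ± 5.80 in alpha barcodes (SD, n = 4). Ppy-rich barcodes had the most even mix, with Rab3a at 37.0% ± 2.63, Rab3c at 26.1% ± 1.33, Rab3d at 19.4% ± 2.63 and Rab3b at 17.4% ± 3.07. Rab3c was 1.09% of the family in beta and 2.96% in delta barcodes. Cadps made up 93.9% to 94.6% of the Cadps and Cadps2 UMIs in beta, alpha and Ppy-rich barcodes and 45.7% ± 10.98 in delta barcodes. That delta share was 36.1% to 57.6% under 3 alternative settings of the gates. In the other families the classes differed less: Vamp2 was 36.6% to 45.8% of the 3 VAMP genes, Unc13a 46.6% to 56.1% of its pair, Ptprn 53.5% to 66.2% of its pair and Stx1a 13.2% to 26.2% of the 2 syntaxins.

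**Figure D3:**
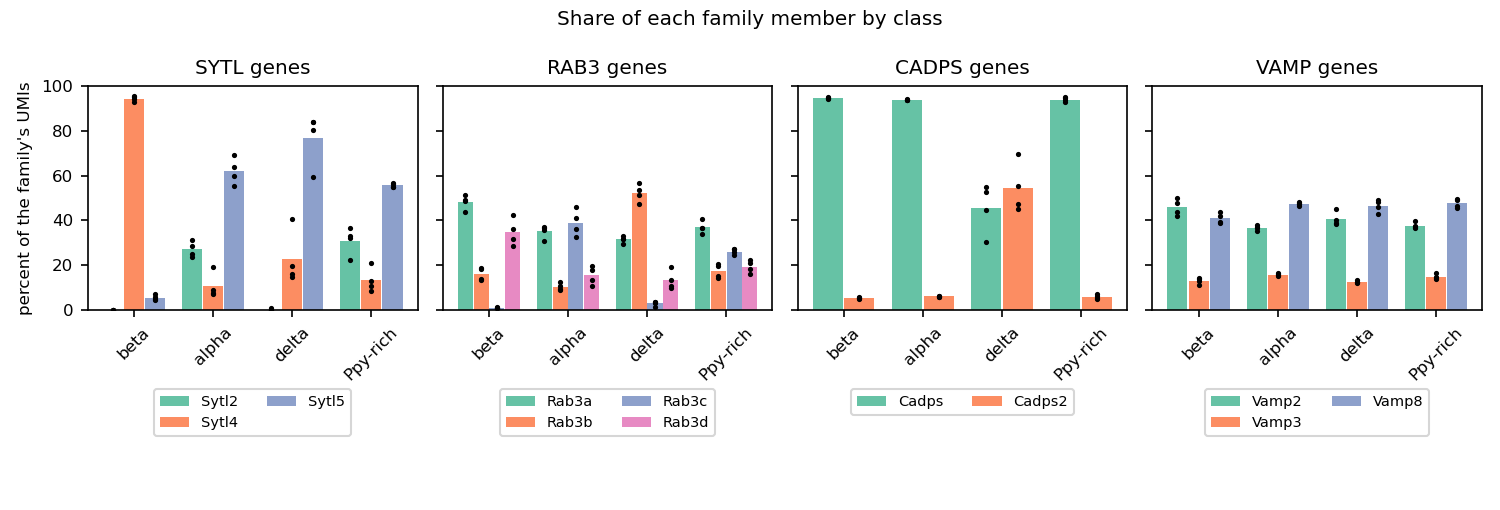
Bars give the mean share of each gene in the UMIs of its family, in percent, for 4 families and 4 barcode classes, and points are the 4 libraries. Sytl4 fills the SYTL bars in beta barcodes, Rab3b leads the RAB3 genes in delta barcodes, and Cadps2 makes up over 45% of the CADPS pair in delta barcodes alone.

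Endothelial barcodes held part of the machinery as well. For 18 of the 34 genes the endothelial level was under 10% of the highest class mean, as with Stxbp5l (0.676%), Syt5 (1.60%) and Rab3b (2.24%). The other 16 were above that share. For 6 genes it was over 50% of it: Stx1a, Stx4a, Vamp3, Vamp8, Nsf and Napa.

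A wider list of 78 other genes of the machinery, of which 67 were tested, was counted by the same rule. In beta barcodes 7 were higher (7.98% of all genes were) and 10 lower (11.2%), and in alpha barcodes 4 were higher (5.53%) and 5 lower (5.96%). In delta barcodes 6 were higher (8.56%) and 4 lower (3.88%), and in Ppy-rich barcodes 2 were higher (4.86%) and 3 lower (3.34%). Rims3 and Pclo, active zone genes, averaged 108 and 612 CPM in beta barcodes, against 4.94 to 9.17 and 84.6 to 259 CPM in the other classes. Syt1, the calcium sensor of fast synaptic release, averaged 133 ± 31.6 CPM in delta barcodes, against at most 8.25 CPM in the other class means. Rab27b averaged 34.7 ± 11.9 CPM in Ppy-rich and 14.0 ± 3.57 CPM in alpha barcodes, against 2.39 in delta and 0.343 in beta barcodes. Sv2b, a synaptic vesicle protein, averaged 65.9 ± 2.69 CPM in Ppy-rich and 47.8 ± 2.56 CPM in alpha barcodes, against 4.53 in beta and 1.80 in delta barcodes (SD, n = 4).

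Age was compared within each genotype, 6 months over 1 month, as the ratio of CPM less that of the median gene, with an exact conditional 95% Poisson interval and no test. A gene was counted where it moved by at least 1.5-fold in the same direction in both CCR2-DTR and WT with intervals that excluded the median gene. In beta barcodes 1 of the 29 genes tested in both pairs was counted (Syt5, lower), where 3.01% of all genes were. In alpha barcodes 0 of 31 were (1.5% of all genes), in delta barcodes 0 of 30 (2.41%), and in Ppy-rich barcodes 2 of 32 (Syt5 lower and Sytl2 higher, with 1.66% of all genes). In beta, alpha and delta barcodes these counts are near or under the background. In Ppy-rich barcodes 2 of 32 is above it, but that is 2 genes of a list chosen with earlier results of these data known. No enrichment was tested. The median log2 ratio of the exocytosis genes lay between -0.03 and 0.11 in the 8 pairs.

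Syt5 was counted in both beta and Ppy-rich barcodes, lower in the 6-month libraries, and was picked from these same ratios. In beta barcodes it was at 19.95 CPM at 6 months and 48.1 CPM at 1 month in CCR2-DTR, and at 19.7 CPM at 6 months and 44.0 CPM at 1 month in WT. In Ppy-rich barcodes it was at 23.9 and 77.9 CPM at 6 and 1 months in CCR2-DTR, and at 27.1 and 60.4 CPM at 6 and 1 months in WT. Both 6-month libraries were low and both 1-month libraries high in either class. The log2 ratio was -1.30 (interval -1.49 to -1.13) in CCR2-DTR and -1.21 (-1.44 to -0.99) in WT beta barcodes. In Ppy-rich barcodes it was -1.70 (-2.30 to -1.13) in CCR2-DTR, on 34 and 109 UMIs at 6 and 1 months, and -1.18 (-1.67 to -0.71) in WT. In alpha barcodes it was -0.56 in both genotypes, just under the size for a call, with 42.5 and 64.5 CPM at 6 and 1 months in CCR2-DTR and 37.2 and 55.3 CPM in WT. In delta barcodes it was -0.18 (-0.47 to 0.12) in CCR2-DTR and -0.71 (-1.02 to -0.40) in WT. Whether the classes differ in this change was not tested. Depth moved with age too: the median beta barcode held 13483 and 13891 non-hormone UMIs at 6 months in CCR2-DTR and WT, against 7267 and 7794 at 1 month, and its part in the ratio was not tested. Endothelial barcodes held at most 2.93 CPM of Syt5.

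**Figure D4:**
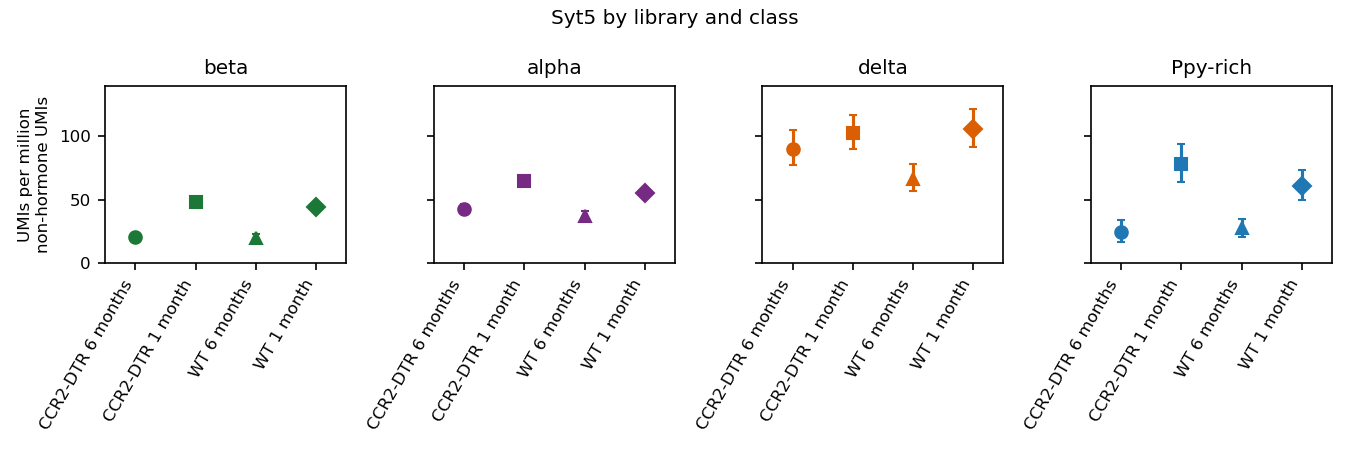
Each panel is a barcode class and each point the level of Syt5 in a library, in counts per 1000000 non-hormone UMIs on a linear axis from 0, with the exact 95% Poisson interval as a bar. In beta, alpha and Ppy-rich barcodes both 6-month libraries lie below both 1-month libraries, and in delta barcodes the WT 6-month library is the lowest.

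Sytl2 in Ppy-rich barcodes went the other way, at 45.7 CPM at 6 months and 23.6 CPM at 1 month in CCR2-DTR, and at 44.5 CPM at 6 months and 23.2 CPM at 1 month in WT. Both 6-month values were close to each other and so were both 1-month values. The log2 ratio was 0.96 (0.33 to 1.61) in CCR2-DTR, on 65 and 33 UMIs, and 0.91 (0.37 to 1.48) in WT, on 97 and 40 UMIs, 6 months first. Alpha barcodes showed 0.04 (-0.18 to 0.26) in CCR2-DTR and 0.21 (0.01 to 0.41) in WT. The alpha marker list took 0.409% and 0.440% of Ppy-rich UMIs at 6 months in CCR2-DTR and WT, against 0.689% and 0.467% at 1 month. The list is mostly Gcg and Ttr, the gate holds Gcg under 3%, and the part of alpha RNA in the Sytl2 ratio was not tested.

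**Figure D5:**
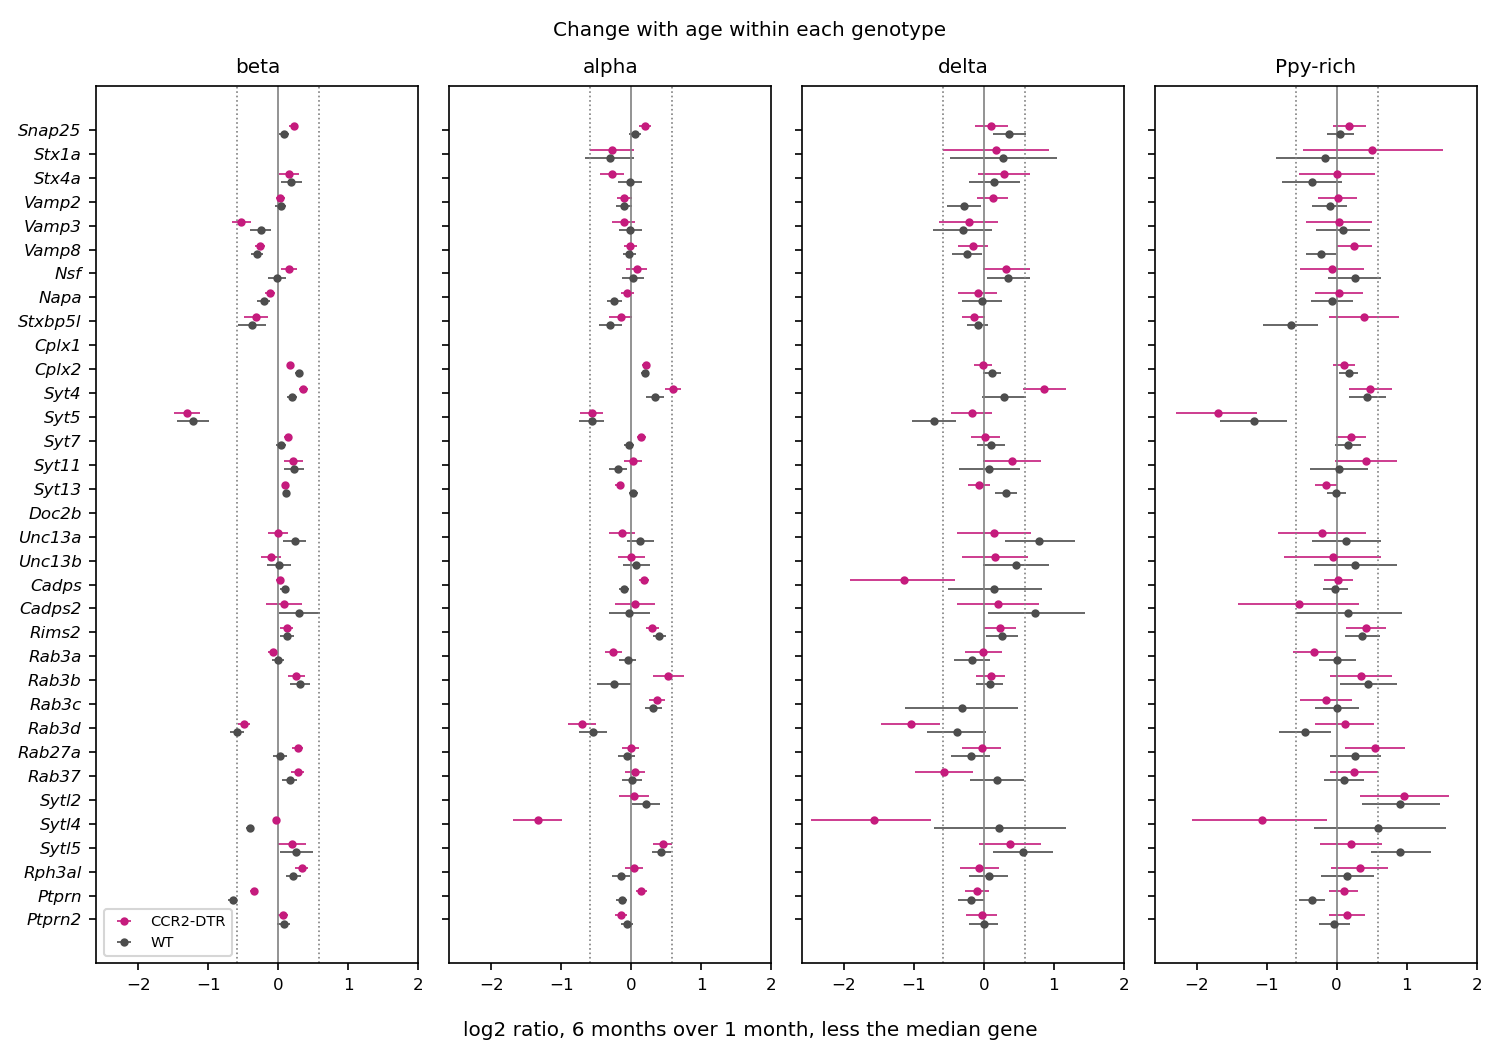
Points give the log2 ratio of 6 months over 1 month less the median gene for each exocytosis gene (rows) in each barcode class (panels), with 95% Poisson intervals as lines, CCR2-DTR in pink and WT in grey, and dotted lines at 1.5-fold. Rows without a point (Cplx1 and Doc2b throughout) were too low to enter. Most points lie inside the dotted lines, Syt5 lies to the left in beta and Ppy-rich barcodes for both genotypes, and Sytl4 in alpha and delta barcodes lies to the left for CCR2-DTR.

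Several genes passed 1.5-fold in 1 genotype and fell short in the other, and were chosen after their values were seen. Within a single pair, 6.59% of all genes passed it in CCR2-DTR and 4.78% in WT beta barcodes, 4.91% and 3.83% in alpha, 9% and 8.25% in delta, and 7.86% and 7.03% in Ppy-rich barcodes, CCR2-DTR first. Rab3d, the isoform higher in beta barcodes, was lower at 6 months there, with log2 ratios of -0.49 (-0.58 to -0.41) in CCR2-DTR and -0.59 (-0.69 to -0.49) in WT, and in alpha barcodes, with -0.70 (-0.90 to -0.50) in CCR2-DTR and -0.54 (-0.74 to -0.35) in WT. In delta barcodes Rab3d was at -1.04 (-1.47 to -0.63) in CCR2-DTR and -0.39 (-0.81 to 0.03) in WT. In Ppy-rich barcodes it was at 0.12 (-0.31 to 0.54) in CCR2-DTR and -0.45 (-0.82 to -0.08) in WT, so the direction was not shared by all 4 classes. Syt4 was higher at 6 months in alpha barcodes, with 0.59 (0.48 to 0.71) in CCR2-DTR and 0.35 (0.22 to 0.47) in WT, and in delta barcodes, with 0.86 (0.56 to 1.17) in CCR2-DTR and 0.28 (-0.03 to 0.60) in WT. Ptprn, the granule membrane protein, was lower at 6 months in beta barcodes, with -0.35 (-0.40 to -0.29) in CCR2-DTR and -0.65 (-0.72 to -0.59) in WT. Sytl5 was higher in Ppy-rich barcodes, with 0.20 (-0.23 to 0.64) in CCR2-DTR and 0.91 (0.50 to 1.34) in WT. Stxbp5l in Ppy-rich barcodes was at 0.39 (-0.11 to 0.89) in CCR2-DTR and -0.66 (-1.05 to -0.26) in WT. In delta barcodes of WT, Unc13a (0.79) and Cadps2 (0.73) were higher on 110 and 51 and on 58 and 28 UMIs, 6 months first.

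Sytl4 was lower at 6 months in alpha, delta and Ppy-rich barcodes of CCR2-DTR alone, with log2 ratios of -1.33, -1.57 and -1.07, and Cadps in delta barcodes of CCR2-DTR with -1.14 (-1.91 to -0.41). For Sytl4 the level in these classes was near that of endothelial barcodes, while Cadps in delta barcodes stood at 12.1 and 26.7 CPM at 6 and 1 months in CCR2-DTR, against 8.80 and 13.4 CPM in endothelial barcodes. In endothelial barcodes Sytl4 itself was at -0.99 (-1.78 to -0.26) in CCR2-DTR and 0.99 (0.06 to 1.98) in WT. Insulin took 1.61% of alpha UMIs at 6 months and 2.85% at 1 month in CCR2-DTR, against 1.21% and 1.28% in WT, and the part of free RNA in these ratios was not tested. In beta barcodes, where Sytl4 is abundant, its ratio was -0.03 (-0.08 to 0.01) in CCR2-DTR and -0.40 (-0.46 to -0.34) in WT.

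Genotype was compared in the same way at each age, CCR2-DTR over WT, which asks whether toxin-treated CCR2-DTR islets differ later in these genes. At both ages together 0 exocytosis genes were counted in any of the 4 classes, where 0.16% of all genes were in beta, 0.181% in alpha, 0.228% in delta and 0.179% in Ppy-rich barcodes. In beta barcodes the log2 ratios ran from -0.21 (Vamp3) to 0.34 (Sytl4) at 6 months and from -0.22 (Rab3d) to 0.16 (Rab3a) at 1 month. At 6 months no exocytosis gene was called in any class, where 0.936% of all genes were in beta, 1.26% in alpha, 3.89% in delta and 3.24% in Ppy-rich barcodes. At 1 month 0.939% of all genes were called in beta, 1.49% in alpha, 4.17% in delta and 3.85% in Ppy-rich barcodes. At 1 month Sytl4 was higher in CCR2-DTR alpha (1.21), delta (1.45) and Ppy-rich barcodes (1.23), at 20.7, 26.3 and 22.1 CPM in CCR2-DTR against 8.85, 9.50 and 9.29 CPM in WT, and in endothelial barcodes by 1.30 (0.45 to 2.23). The other calls at 1 month rested on few UMIs: Rab3c in delta barcodes (-1.26, on 14 UMIs in CCR2-DTR and 28 in WT), Cadps2 in delta barcodes (0.68, on 54 and 28 UMIs, CCR2-DTR first) and Stxbp5l in Ppy-rich barcodes (-0.69, on 62 and 121 UMIs, CCR2-DTR first).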

How the data were processed

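The deposited files of the 4 libraries hold raw UMI counts per gene and barcode, made by the authors with Cell Ranger 5.0.1 on mm10, per the submitters' processing notes; the other deposited files (unit: other) name the barcodes and genes and hold no measurement. Free RNA was not subtracted here. Which annotation release was used, and whether introns were counted, is not given in the sources used here.

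Kept were barcodes with at least 3000 UMIs, 500 genes, at most 15% mitochondrial UMIs and a Scrublet score (scanpy 1.11.5) of at most 0.25. Beta barcodes had at least 20% insulin UMIs and under 3% each of Gcg, Sst and Ppy. Alpha, delta and Ppy-rich barcodes had at least 5% of their own hormone, under 3% of each of the other 2 and under 15% insulin. Endothelial barcodes had UMIs of at least 4 of 8 endothelial genes. Depth after gating was 1399981 to 30206890 non-hormone UMIs per class and library.

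Counts were summed per class and library without Ins1, Ins2, Iapp, Gcg, Sst, Ppy and Pyy and fitted with edgeR 4.0.16 (R 4.3.3, TMM, quasi-likelihood test, library as a block, Benjamini-Hochberg over 13671 genes); DESeq2 1.42.0 was an alternative. WT mice are described as littermates of the CCR2-DTR mice, but which litters went into which library is not given. The block takes out the level of each library. The p-values therefore measure how class differences vary over 4 libraries that also differ in age and genotype. In data simulated for the alpha contrast over 13671 genes, 94.0% of 2-fold, 100% of 3-fold, 94% of 4-fold and 100% of 8-fold changes were recovered. Unlike in the real sums, each simulated gene had the same expected share of UMIs in every class and library, apart from the changes put into alpha. Recovery there meant an adjusted p under 0.05 with the right sign, without the 2-fold limit of a call, and 10 unchanged genes also passed. Contrasts of the other classes, of which delta and Ppy-rich have fewer UMIs, were not simulated. Age and genotype ratios used genes with a mean of at least 10 CPM and 20 UMIs over both libraries; Poisson and Clopper-Pearson 95% intervals cover counting error only. The members and gene lists were chosen with earlier results of these data known. Genes are named where called, with every library value for the 5 largest differences of a class; other machinery genes are named from the top 3 of a class and direction.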

Additional observations from a re-analysis of the deposited data

Results flagged for a closer look

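Rab3b in alpha barcodes was flagged because its differences pointed in opposite directions in the 2 pairs of libraries, with intervals on opposite sides of the median gene. With age the log2 ratio was 0.53 (95% Poisson interval 0.31 to 0.75) in CCR2-DTR, at 31.9 CPM at 6 months and 22.6 CPM at 1 month, and -0.25 (-0.49 to -0.00) in WT, at 22.3 CPM at 6 months and 26.7 CPM at 1 month. By genotype it was 0.53 (0.28 to 0.78) at 6 months and -0.26 (-0.47 to -0.05) at 1 month, CCR2-DTR over WT. Both readings come from the same 4 libraries, in which CCR2-DTR at 6 months held the highest level, and the difference between the pairs was not tested. Of 245 combinations of gene, class and comparison looked at, 11 had opposite signs with intervals that excluded the median gene in both pairs, and these 2 were the ones at least 1.5-fold apart.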

How the results depend on the processing

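The counts of genes with a class preference were 10 in beta, 6 in alpha, 6 in delta and 4 in Ppy-rich barcodes. They changed most when a class had to differ from each of the other 3, a reading added after the data were seen, to 2 in beta, 1 in alpha, 3 in delta and 0 in Ppy-rich barcodes; the difference is by construction. Leaving out each library in turn gave 9 to 10, 5 to 6, 6 to 7 and 4. DESeq2 gave 9, 6, 7 and 4. Without the library block the counts were 9, 6, 6 and 4. Age and genotype groups hold 1 library each, so these comparisons had no paired analysis. Without TMM the median gene shifted by -0.11 in alpha and 0.14 in delta barcodes, and 9 genes were called in beta and 8 in delta barcodes. The age counts of 0 in alpha and delta barcodes became 1 in alpha under the stricter gate (Syt5) and 1 under the looser gate (Rab3d), and 1 in delta under the stricter gate (Rab3d), the cause not tested. Asking for 2-fold left 1 of 2 in Ppy-rich barcodes (Syt5). The genotype counts were 0 under the alternatives run. Beside Sytl2, Syt4 and Doc2b, Cadps lost its beta call under the looser gate (log2 0.97). No called gene changed sign, but the median over the 33 genes did in alpha (-0.09 without TMM, -0.00 under the stricter gate, -0.04 without the WT 1-month library), in delta (0.05 without TMM) and in Ppy-rich barcodes (-0.02 without the filter on low counts). The 123 to 303 Ppy-rich and 190 to 471 delta barcodes a library limit what could be seen of genes at low levels.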
